A study of Arabidopsis thaliana with 8 samples.

Results

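The genes described here encode the enzymes of the Calvin cycle and of photorespiration in the thale cress Arabidopsis thaliana, the model plant of molecular genetics. They were taken from a list of 32 nuclear loci, 21 for the Calvin cycle and 11 for photorespiration, matched by locus code. The table of 27826 loci held 31 of them: all 21 Calvin cycle loci and 10 of the 11 photorespiration loci. The remaining locus, PGLP1 (AT5G36790), which encodes the phosphoglycolate phosphatase that opens photorespiration, and its near copy AT5G36700 were not analysed here.

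Shoots were profiled on 8 Affymetrix arrays, 2 for each of 4 groups. The groups were adult plants (3 weeks old) submerged for 24 h in darkness, juvenile plants (2 weeks old) submerged in the same way, adult dark controls kept for 24 h in dark tanks without water, and juvenile dark controls. All 4 groups were therefore without light for 24 h, and the treatment began at the end of a light phase, so the comparison of submerged with control plants is water against air in darkness and not light against dark. The labels name no genotype, ecotype or pooling of plants, and do not say whether the 2 samples of a group came from separate plantings, so the p-values measure only the spread between these samples. Sample titles label the submerged plants with dark as well, so groups were taken from the source field, which names submergence.

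The Calvin cycle fixes carbon dioxide in the chloroplast. Rubisco joins it to ribulose bisphosphate, the product is reduced with ATP and NADPH by phosphoglycerate kinase and glyceraldehyde-3-phosphate dehydrogenase, and a chain of aldolases, phosphatases, transketolases, an epimerase, an isomerase and phosphoribulokinase regenerates the acceptor. When Rubisco takes oxygen in place of carbon dioxide, photorespiration recovers the carbon of phosphoglycolate through peroxisomes and mitochondria. Several of these enzymes are switched on in light by thioredoxins, and CP12 proteins hold glyceraldehyde-3-phosphate dehydrogenase and phosphoribulokinase together in an inactive complex in the dark.

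Under water a minority of these genes fell and a few rose, and most calls were the same at the 2 ages. In adult plants 7 of the 31 genes fell and 5 rose (adjusted p under 0.05), and in juvenile plants 10 fell and 3 rose. Among all 27826 genes 18.9% fell and 14.6% rose in adult plants, and 18.8% fell and 15.5% rose in juvenile plants. In all 12 of 31 were called in adult plants and 13 of 31 in juvenile plants, 38.7% and 41.9%, against 33.6% and 34.2% of all genes. With an intensity trend and a robust prior in the same fit, 18 of 31 were called at each age (58.1%), against 36.9% of all genes in adult and 37.4% in juvenile plants, so how far the share of called genes lay above the background depended on this setting. That fit also called RBCS1A, CP12-1 and GGAT1 lower and GOX2 higher at both ages, AGT1 and GDCH1 lower in adult plants and GAPA1 lower in juvenile plants. The shares of all genes include dim genes, whereas 29 of the 31 lay in the brighter 50%, and no share among bright genes is given here. With the dimmest 50% of genes left out, 7 more responses of single genes were called over both ages, and 0 of those still measured lost their call. The median change of the 31 genes was -0.16 in adult and -0.20 in juvenile plants on the log2 scale, where all genes had medians of -0.02 and -0.05. Every adjusted p for a gene comes from limma fitted to all genes, with Benjamini-Hochberg adjustment. The 2 submerged arrays lay wholly below the 2 control arrays for 19 of the 31 genes and wholly above for 6 in adult plants, against 35.6% and 30.6% of all genes. In juvenile plants they lay below for 19 and above for 9, against 37.7% and 29.6% of all genes. In whole shoots, fewer cells of a type and less RNA per cell cannot be told apart.

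Few of the 31 genes had a called change of at least 2-fold. A fall of at least 2-fold with a call was seen for 1 gene in adult plants (HPR1) and 3 in juvenile plants (HPR1, GAPA2 and RBCS2B), against 8.15% and 7.67% of all genes. A called rise of at least 2-fold was seen for 2 genes in adult plants (RBCS1B and CP12-3) and 1 in juvenile plants (CP12-3), against 8.57% and 9.6% of all genes. The 31 genes spanned -1.08 to 1.83 in adult and -1.32 to 1.21 in juvenile plants, while all genes spanned -7.61 to 8.88 and -6.86 to 8.99. A larger set of genes reaches further extremes, so these spans do not show smaller changes. The quartiles of the 31 genes were -0.38 and -0.00096 in adult plants, against -0.39 and 0.28 for all genes. In juvenile plants they were -0.56 and 0.15, against -0.39 and 0.26.

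**Figure D1:**
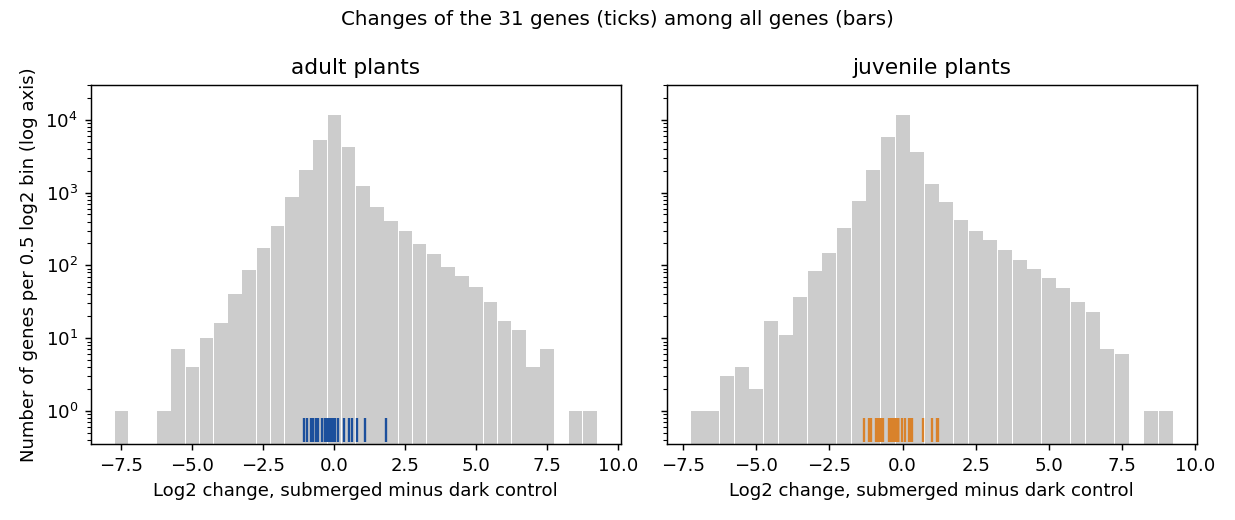
Number of genes (bars, log axis) in each 0.5-wide bin of the log2 change between submerged plants and dark controls, for adult plants at the left and juvenile plants at the right, with the 31 Calvin cycle and photorespiration genes as ticks. The ticks lie between -1.08 and 1.83 in adult plants and between -1.32 and 1.21 in juvenile plants, inside the bulk of all genes.

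**Figure D2:**
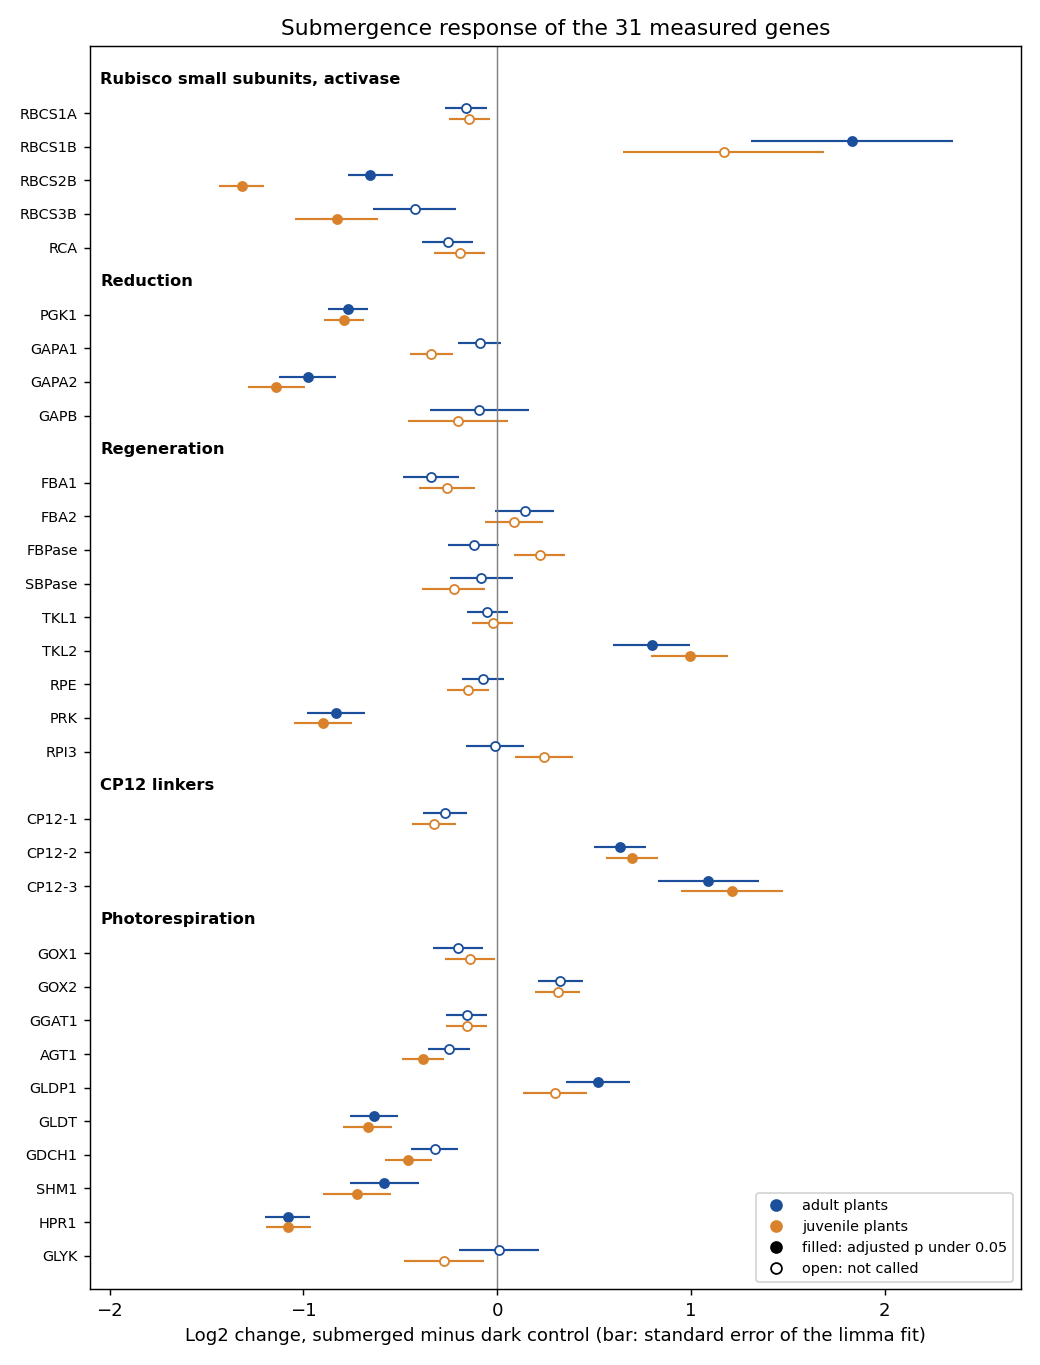
Log2 change between submerged plants and dark controls of each of the 31 genes by role, with the standard error of the limma fit as bars, adult plants in blue above juvenile plants in orange. Filled points were called at an adjusted p under 0.05. PGK1, GAPA2, PRK, GLDT, SHM1, HPR1 and RBCS2B were lower and TKL2, CP12-2 and CP12-3 higher at both ages.

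The small subunit of Rubisco is encoded by 4 genes, and these did not move together. RBCS1A (AT1G67090) stands alone on chromosome 1, while RBCS3B, RBCS2B and RBCS1B are adjacent genes on chromosome 5 in the RefSeq gene table. The 4 genes are close relatives, and the assignment of probes to loci is not given in the sources used here, so their signals may be mixed in part.

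RBCS2B (AT5G38420) fell at both ages. It had log2 values of 10.09 and 9.90 on the submerged adult arrays, against 10.68 and 10.62 on adult dark control arrays. It had 9.53 and 9.49 on the submerged juvenile arrays, against 10.84 and 10.83 on juvenile dark control arrays. Neither age showed an overlap, and the gap was wider in juvenile plants. The change was -0.65 ± 0.12 in adult plants (standard error, adjusted p = 0.00454) and -1.32 ± 0.12 in juvenile plants (adjusted p = 0.000181), where the fall was 2.49-fold.

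RBCS1B (AT5G38430) stood on the other side of its neighbour. It had 7.90 and 9.06 on the submerged adult arrays, against 6.89 and 6.42 on adult dark control arrays, and 8.74 and 7.32 on the submerged juvenile arrays, against 6.96 and 6.76 on juvenile dark control arrays. All 4 submerged arrays lay above all 4 control arrays, but the submerged duplicates differed by 1.16 in adult and 1.42 in juvenile plants, the widest gaps of any of the 31 genes. The change was 1.83 ± 0.52 in adult plants (adjusted p = 0.0325) and 1.17 ± 0.52 in juvenile plants (adjusted p = 0.133, not called). The adult call was kept in 3 of the 8 fits that left out 1 array. The juvenile change was 0.46 without juvenile submerged replicate 1 and 1.88 without juvenile submerged replicate 2 (adjusted p = 0.0291).

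RBCS3B (AT5G38410) had 7.48 and 7.91 on the submerged adult arrays, against 8.04 and 8.19 in adult dark controls, and 7.39 and 7.02 on the submerged juvenile arrays, against 7.84 and 8.23 in juvenile dark controls. It was lower without overlap at both ages and passed the test only in juvenile plants, with a change of -0.83 ± 0.21 (adjusted p = 0.0227) beside -0.43 ± 0.21 in adult plants (adjusted p = 0.180). RBCS1A lay between 12.58 and 12.70 on submerged arrays and between 12.79 and 12.84 on control arrays. It was not called, with changes of -0.16 ± 0.11 in adult and -0.14 ± 0.11 in juvenile plants, and its values were within 0.46 of the highest value on each array. RCA (AT2G39730), the activase that frees Rubisco of bound sugar phosphates, had changes of -0.26 ± 0.13 and -0.19 ± 0.13 and was not called.

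In the reduction steps, the falling genes were PGK1 and GAPA2. PGK1 (AT3G12780), a plastid phosphoglycerate kinase, had 9.95 and 9.97 on the submerged adult arrays, against 10.71 and 10.75 in adult dark controls. It had 10.04 and 10.01 on the submerged juvenile arrays, against 10.81 and 10.81 in juvenile dark controls. The 4 submerged arrays thus held nearly 1 value and the 4 control arrays another, with a change of -0.77 ± 0.10 in adult (adjusted p = 0.00133) and -0.79 ± 0.10 in juvenile plants (adjusted p = 0.00112).

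GAPA2 (AT1G12900), which encodes an A subunit of the chloroplast glyceraldehyde-3-phosphate dehydrogenase, had 8.32 and 8.61 on the submerged adult arrays, against 9.33 and 9.55 in adult dark controls. It had 8.44 and 8.54 on the submerged juvenile arrays, against 9.69 and 9.58 in juvenile dark controls. All submerged arrays were lower, by 0.98 ± 0.15 in adult (adjusted p = 0.00220) and 1.14 ± 0.15 in juvenile plants (adjusted p = 0.00104). The other A subunit gene GAPA1 (AT3G26650) changed by -0.09 ± 0.11 and -0.34 ± 0.11 and did not pass (adjusted p = 0.585 and 0.0523). The B subunit gene GAPB (AT1G42970) changed by -0.09 ± 0.26 and -0.20 ± 0.26. Its 2 submerged adult arrays differed by 0.84, so the interval of its adult change ran from -0.70 to 0.52.

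Regeneration of the acceptor involved 9 measured genes, of which 1 fell and 1 rose at both ages and 7 were not called at either age. Among all genes 14.8% fell and 12.4% rose at both ages. PRK (AT1G32060), the phosphoribulokinase that makes ribulose bisphosphate, had 7.17 and 7.47 on the submerged adult arrays, against 8.24 and 8.07 in adult dark controls. It had 7.40 and 7.20 on the submerged juvenile arrays, against 8.16 and 8.24 in juvenile dark controls. The groups did not overlap, and the change was -0.83 ± 0.15 in adult (adjusted p = 0.00500) and -0.90 ± 0.15 in juvenile plants (adjusted p = 0.00346).

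TKL2 (AT2G45290), a transketolase gene, had 5.92 and 6.26 on the submerged adult arrays, against 5.35 and 5.23 in adult dark controls, and 5.78 and 6.30 on the submerged juvenile arrays, against 5.07 and 5.02 in juvenile dark controls. It was higher on every submerged array, with a change of 0.80 ± 0.20 in adult (adjusted p = 0.0202) and 0.99 ± 0.20 in juvenile plants (adjusted p = 0.00787). The adult call was kept in 5 of the 8 fits without 1 array and the juvenile call in 8. TKL1 (AT3G60750), the other transketolase gene, had 11.37 to 11.48 on submerged arrays and 11.44 to 11.50 on control arrays. Its changes of -0.05 (95% interval -0.30 to 0.20) and -0.02 (-0.27 to 0.23) bound any difference to less than the shift of TKL2 in either age.

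The other regeneration genes, none of them called, were the aldolases FBA1 and FBA2, the fructose and sedoheptulose bisphosphatases FBPase and SBPase, the epimerase RPE and the isomerase RPI3. Their changes ran from -0.34 (FBA1) to 0.14 (FBA2) in adult plants and from -0.26 (FBA1) to 0.24 (RPI3) in juvenile plants. The standard errors of these changes were 0.11 to 0.16.

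The CP12 genes split. CP12-2 (AT3G62410) had 11.67 and 11.80 on the submerged adult arrays, against 10.98 and 11.23 in adult dark controls, and 11.75 and 11.59 on the submerged juvenile arrays, against 10.92 and 11.02 in juvenile dark controls. CP12-3 (AT1G76560) had 8.46 and 8.81 on the submerged adult arrays, against 7.45 and 7.64 in adult dark controls, and 8.94 and 8.13 on the submerged juvenile arrays, against 7.32 and 7.32 in juvenile dark controls. Both genes were higher on all submerged arrays. CP12-2 rose by 0.63 ± 0.14 in adult (adjusted p = 0.0107) and 0.70 ± 0.14 in juvenile plants (adjusted p = 0.00689), and CP12-3 by 1.09 ± 0.26 (adjusted p = 0.0171) and 1.21 ± 0.26 (adjusted p = 0.0108). Without 1 array the calls were kept in 6 and 7 of 8 fits for CP12-2 and in 5 and 6 of 8 for CP12-3.

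CP12-1 (AT2G47400) lay on the other side, at 11.11 and 10.99 on the submerged adult arrays, against 11.25 and 11.39 in adult dark controls, and at no more than 11.05 on the 2 submerged juvenile arrays, against 11.38 and 11.33 in juvenile dark controls. Its changes of -0.27 ± 0.11 (adjusted p = 0.117) and -0.33 ± 0.11 (adjusted p = 0.0662) did not pass. Of the proteins that CP12 binds, PRK and GAPA2 were thus represented by falling genes, and GAPA1 and GAPB by genes with no call.

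**Figure D3:**
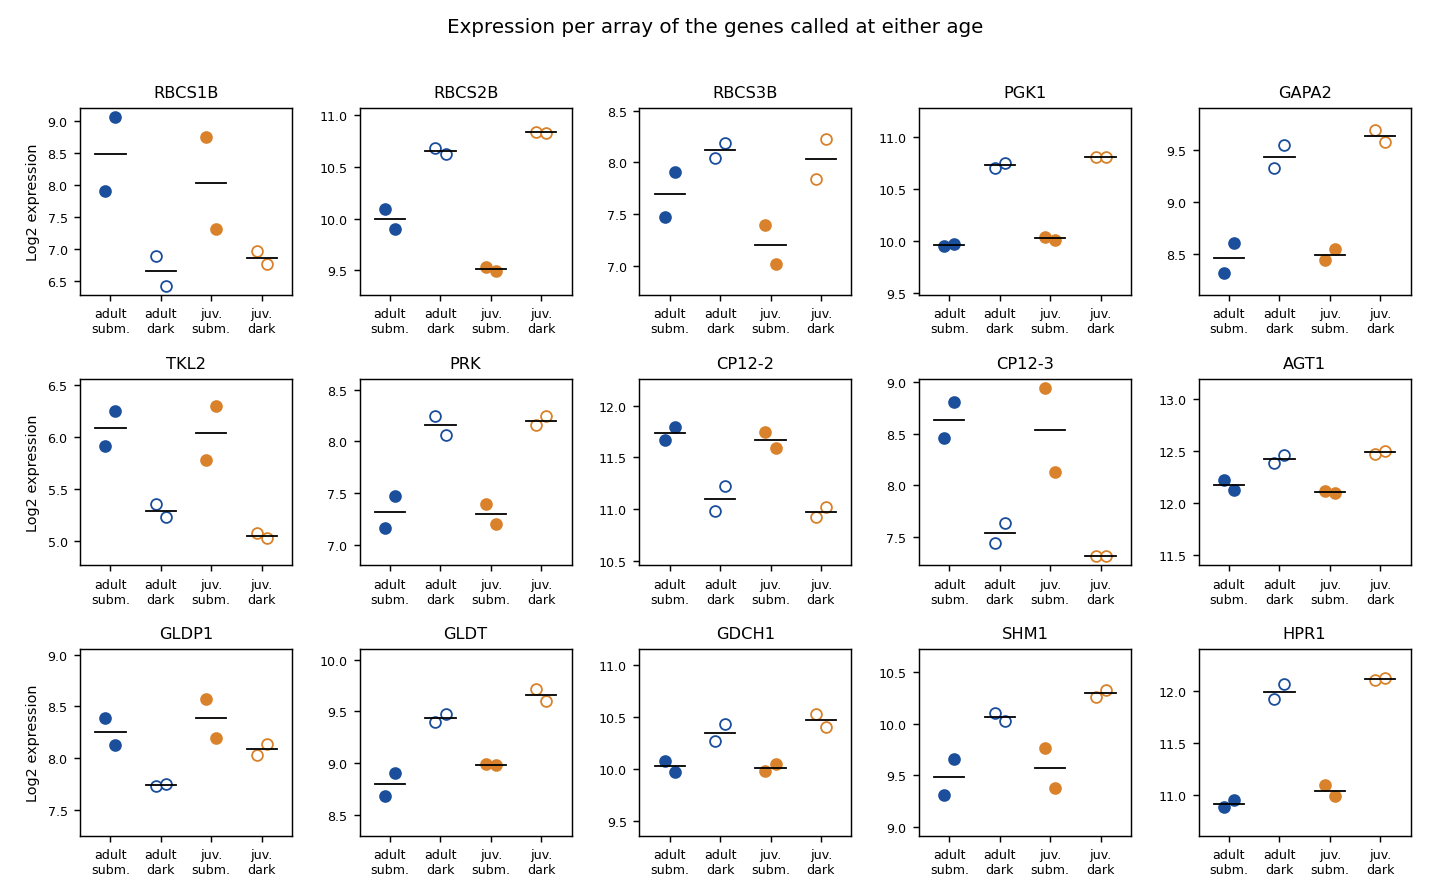
Log2 expression on each array of the 15 genes called at either age, with submerged plants (filled) left of dark controls (open), adult plants in blue and juvenile plants in orange, and the group mean as a line. Each panel has its own axis, and the submerged duplicates of RBCS1B lie 1.16 and 1.42 apart.

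Photorespiration genes are given in pathway order. Glycolate oxidase of the peroxisome is encoded by GOX1 (AT3G14420) and GOX2 (AT3G14415), which are adjacent genes. GOX2 had 11.15 and 11.22 on the submerged adult arrays, against 10.90 and 10.81 in adult dark controls, and 10.99 and 11.15 on the submerged juvenile arrays, against 10.79 and 10.72 in juvenile dark controls. It was higher on all submerged arrays, by 0.33 ± 0.12 and 0.31 ± 0.12, but missed the threshold at both ages (adjusted p = 0.0699 and 0.0788). GOX1 changed by -0.20 ± 0.13 and -0.14 ± 0.13 and was not called.

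Of the 2 peroxisomal aminotransferases that make glycine and take up serine, AGT1 fell in juvenile plants. GGAT1 (AT1G23310), the glutamate:glyoxylate aminotransferase, changed by -0.16 ± 0.11 at both ages and was not called. AGT1 (AT2G13360), the serine:glyoxylate aminotransferase, had 12.22 and 12.13 on the submerged adult arrays, against 12.38 and 12.46 in adult dark controls, and 12.12 and 12.09 on the submerged juvenile arrays, against 12.48 and 12.50 in juvenile dark controls. It fell by 0.38 ± 0.11 in juvenile plants (adjusted p = 0.0303) and had a change of -0.25 ± 0.11 in adult plants (adjusted p = 0.122). The juvenile call was kept in 2 of the 8 fits without 1 array. GGAT1 lay within 0.61 and AGT1 within 0.89 of the highest value on each array. Saturation is not given in the sources used here, so the size of their changes is uncertain.

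The mitochondrial glycine decarboxylase complex converts glycine with serine hydroxymethyltransferase, and its subunits went different ways. GLDT (AT1G11860), the T protein, had 8.68 and 8.91 on the submerged adult arrays, against 9.40 and 9.47 in adult dark controls, and 8.99 and 8.98 on the submerged juvenile arrays, against 9.71 and 9.60 in juvenile dark controls. It fell by 0.64 ± 0.12 (adjusted p = 0.00706) and 0.67 ± 0.12 (adjusted p = 0.00551). GDCH1 (AT2G35370), an H protein, fell by 0.46 ± 0.12 in juvenile plants (adjusted p = 0.0239) and had a change of -0.32 ± 0.12 in adult plants (adjusted p = 0.0815). The juvenile call of GDCH1 was kept in 4 of the 8 fits without 1 array, and the GLDT calls in all 8.

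GLDP1 (AT4G33010), the P protein that carries out the decarboxylation, was the exception in direction. GLDP1 had 8.39 and 8.12 on the submerged adult arrays, against 7.73 and 7.75 in adult dark controls, and 8.57 and 8.19 on the submerged juvenile arrays, against 8.03 and 8.14 in juvenile dark controls. It rose by 0.52 ± 0.16 in adult plants (adjusted p = 0.0465) and had a change of 0.30 ± 0.16 in juvenile plants (adjusted p = 0.213). The adult call was close to the threshold and was kept in 2 of the 8 fits without 1 array.

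SHM1 (AT4G37930), the serine hydroxymethyltransferase of leaf mitochondria, had 9.31 and 9.66 on the submerged adult arrays, against 10.10 and 10.03 in adult dark controls, and 9.76 and 9.38 on the submerged juvenile arrays, against 10.26 and 10.33 in juvenile dark controls. It fell by 0.58 ± 0.18 (adjusted p = 0.0406) and 0.72 ± 0.18 (adjusted p = 0.0176). The calls were kept in 3 and 5 of the 8 fits without 1 array.

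HPR1 (AT1G68010), the peroxisomal hydroxypyruvate reductase, had the largest fall among the photorespiration genes at both ages. It had 10.88 and 10.95 on the submerged adult arrays, against 11.92 and 12.07 in adult dark controls, and 11.10 and 10.98 on the submerged juvenile arrays, against 12.11 and 12.13 in juvenile dark controls. Both pairs were separated by far more than the duplicates differed. The fall was 1.08 ± 0.12 at both ages, or 2.12-fold in adult (adjusted p = 0.000471) and 2.11-fold in juvenile plants (adjusted p = 0.000446). Its dark control values came as close as 0.87 to the highest value on an array. Saturation is not given in the sources used here, so the size of this fall is uncertain. GLYK (AT1G80380), the glycerate kinase that returns the product to the Calvin cycle, changed by 0.01 ± 0.21 and -0.27 ± 0.21 and was not called.

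Of the 10 measured photorespiration genes, 3 fell and 1 rose in adult plants and 5 fell and 0 rose in juvenile plants. Of the 21 Calvin cycle genes, 4 fell and 4 rose in adult plants and 5 fell and 3 rose in juvenile plants. The background shares were those given above, 18.9% and 14.6% in adult and 18.8% and 15.5% in juvenile plants.

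The 2 responses share no array and gave similar values gene by gene. The sign was the same for 28 of the 31 genes, against 78.4% of all genes, the exceptions being FBPase, RPI3 and GLYK, none of which was called. The 2 responses of a gene differed by a median of 0.11 and at most by 0.66, for RBCS1B and RBCS2B. At both ages 7 genes fell and 3 rose, against 14.8% and 12.4% of all genes. Both tests used the same estimate of a gene's spread, taken from all arrays, so the calls at the 2 ages are not independent. Another 3 fell with a call only in juvenile plants (RBCS3B, AGT1 and GDCH1) and 2 rose with a call only in adult plants (RBCS1B and GLDP1), which by itself shows no difference between ages.

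The difference itself was tested as the adult response minus the juvenile response. Limma called 0 of the 31 genes and 0% of all genes, and 1 of the 31 (RBCS2B) had an unadjusted p under 0.05, as did 7.3% of all genes. For RBCS2B the difference was 0.66 ± 0.16, with an unadjusted p of 0.00479 and an adjusted p of 0.446. For RBCS3B it was 0.40 ± 0.30 (adjusted p = 0.834) and for RBCS1B 0.66 ± 0.74 (adjusted p = 0.901). The adjusted p of the other 28 genes was 0.772 or more.

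Between adult and juvenile plants of the same treatment, 0 of the 31 genes were called. In dark controls 0.0539% of all genes were called for age, and an unadjusted p under 0.05 was found for 0 of the 31, against 10.1% of all genes. Differences between adult and juvenile dark controls ran from -0.39 (GAPB) to 0.24 (TKL2), with a median of -0.07. Under water 0.126% of all genes were called, and 1 of the 31, RBCS2B, had an unadjusted p under 0.05, as did 11.8% of all genes. It was 0.48 ± 0.12 higher in submerged adult than in submerged juvenile plants (unadjusted p = 0.00420, adjusted p = 0.183). With an intensity trend and a robust prior the adjusted p was 0.0308, when 0.949% of all genes were called. The other genes ran from -0.28 (GAPB) to 0.49 (RBCS3B).

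Several enzymes are encoded by more than 1 gene, and 11 pairs of such paralogues were compared through the difference of their log2 values on each array. This difference shows unequal change and not which gene moved. Exact two-sided permutation tests of the 4 submerged against the 4 control arrays, over 70 arrangements, gave the smallest possible p of 0.0286 for 9 of the 11 pairs, which is 0.0349 after adjustment over the 11. Some pairs share a gene (RBCS1A, GAPA1 and the CP12 genes), and each adjusted p depends on how many pairs reached that smallest p. The 9 are therefore not separate results. Ages were pooled because 2 arrays against 2 cannot pass the threshold. The arrangements ignored age, so adult and juvenile arrays were treated as exchangeable.

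Among these, RBCS1A minus RBCS1B stood at 4.41 ± 0.78 on submerged arrays against 6.06 ± 0.22 on control arrays (SD, n = 4 each, exact permutation p = 0.0286), a shift of -1.65. Because RBCS1A lay within 0.46 of the highest value on each array and saturation is not given in the sources used here, the size of any shift against it is uncertain. CP12-1 minus CP12-3 shifted by -1.45, CP12-1 minus CP12-2 by -0.96 and TKL1 minus TKL2 by -0.93, so the second gene of each pair gained on the first under water. GAPA1 minus GAPA2 shifted by 0.84, so here the second gene lost ground, and RBCS1A minus RBCS2B shifted by 0.83 with the same limit on RBCS1A.

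CP12-1 minus CP12-2 lay between -0.80 and -0.53 on submerged arrays and between 0.16 and 0.45 on control arrays; only the shift can be read, since levels of different probes are not comparable. GOX1 minus GOX2 shifted by -0.49, CP12-2 minus CP12-3 by -0.49 and FBA1 minus FBA2 by -0.41. RBCS1A minus RBCS3B shifted by 0.47 and did not pass (exact permutation p = 0.0571, adjusted 0.0629). GAPA1 minus GAPB shifted by -0.07 (exact permutation p = 0.829, adjusted 0.829). Leaving out any 1 control array left 0 pairs past the threshold, while the shifts of these 9 pairs kept their direction in each of 8 such tests.

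**Figure D4:**
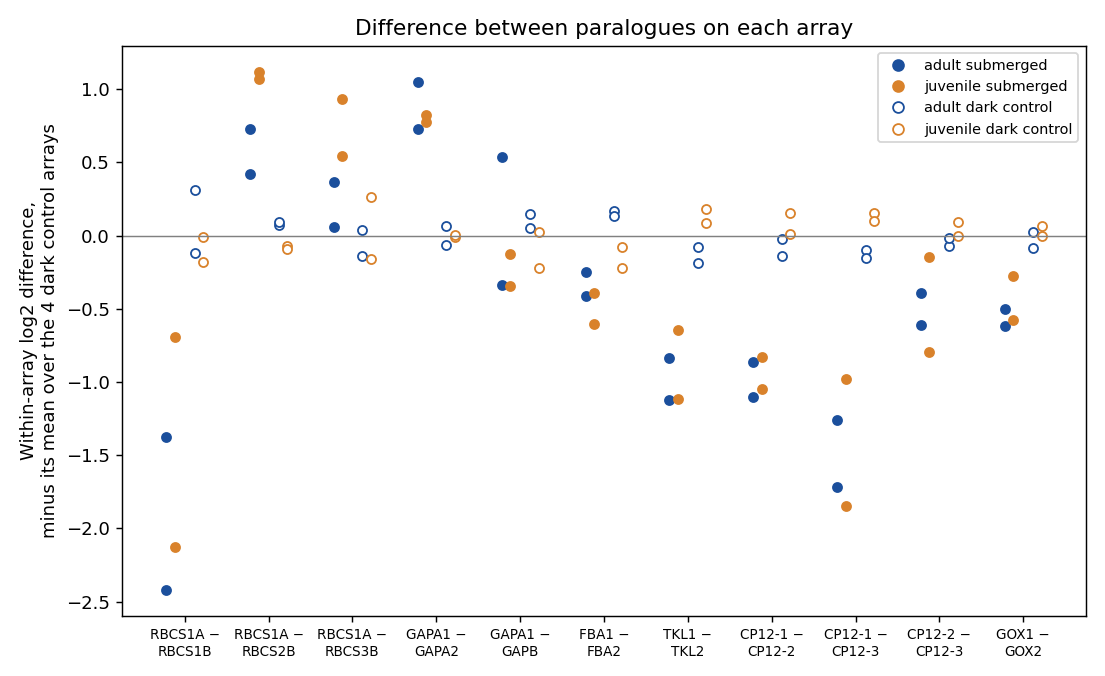
Difference in log2 expression between paralogues on each array, less its mean over the 4 dark control arrays, with submerged arrays (filled) left of control arrays (open), adult plants in blue and juvenile plants in orange. For 9 of the 11 pairs no submerged array overlaps a control array; RBCS1A minus RBCS3B and GAPA1 minus GAPB overlap.

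Other genes of the 2 pathways, with related enzymes, were taken from lists compiled from general knowledge, so a listed gene need not act in the pathway. Of 7 further loci measured from the Calvin cycle list, 2 rose and 1 fell in adult plants and 3 rose and 1 fell in juvenile plants. Among all genes 14.6% rose and 18.9% fell in adult plants, and 15.5% rose and 18.8% fell in juvenile plants. PGK2 (AT1G56190), the other plastid phosphoglycerate kinase, had 7.82 and 7.86 on the submerged adult arrays, against 6.96 and 7.19 in adult dark controls, and 7.66 and 7.80 on the submerged juvenile arrays, against 6.86 and 7.01 in juvenile dark controls. It rose by 0.76 ± 0.13 (adjusted p = 0.00418) and 0.79 ± 0.13 (adjusted p = 0.00342), where PGK1 fell by 0.77 and 0.79.

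RPI1 (AT1G71100), a ribose-5-phosphate isomerase, rose by 0.82 and 1.09, and FBA3, a plastid aldolase, by 0.49 in juvenile plants. Where in the cell the RPI1 enzyme acts is not given in the sources used here, so its rise cannot be placed in the Calvin cycle. The gene cFBP2 (AT5G64380), which encodes a second chloroplast fructose bisphosphatase, fell by 1.05 in adult and 1.06 in juvenile plants, while FBPase was called at neither age. The chloroplast gene of the Rubisco large subunit was not analysed here.

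Among 16 measured genes of Rubisco assembly and of thioredoxin control, 7 fell and 1 rose in adult plants and 8 fell and 1 rose in juvenile plants. That is 50% and 56.2% called, against 33.6% and 34.2% of all genes, and the median change was -0.35 and -0.39. The 2 RBCX chaperones, which assist assembly of the large subunit, moved in opposite directions. RBCX1 (AT4G04330) had 7.46 and 7.71 on the submerged adult arrays, against 10.78 and 10.89 in adult dark controls, and 8.19 and 8.10 on the submerged juvenile arrays, against 10.96 and 10.95 in juvenile dark controls. It fell by 3.25 ± 0.13 (adjusted p = 1.05e-05) and 2.81 ± 0.13 (adjusted p = 1.52e-05), more than any of the 31 genes.

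RBCX2 (AT5G19855) had 11.44 and 11.35 on the submerged adult arrays, against 10.30 and 10.29 in adult dark controls, and 11.61 and 11.44 on the submerged juvenile arrays, against 10.16 and 10.15 in juvenile dark controls. It rose 2.14-fold in adult (adjusted p = 0.000425) and 2.58-fold in juvenile plants (adjusted p = 0.000151), with a standard error of 0.11 on the log2 scale. TRXf2 (AT5G16400), an f-type thioredoxin that activates Calvin cycle enzymes in light, fell by 0.97 and 1.14.

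Of 23 further genes measured from the photorespiration list, 5 fell and 3 rose in adult plants and 9 fell and 1 rose in juvenile plants, with medians of -0.24 and -0.26. That is 34.8% and 43.5% called, against 33.6% and 34.2% of all genes. CAT2 (AT4G35090), the catalase that removes the peroxide made by glycolate oxidase, fell by 1.12 and 1.33. The 2 genes of the L protein shared by glycine decarboxylase and other mitochondrial complexes moved in opposite directions: mtLPD1 (AT1G48030) fell by 0.93 and 1.03, and mtLPD2 (AT3G17240) rose by 0.96 at both ages. SHM2 fell by 0.75 and 0.56, and HAOX2, of the glycolate oxidase family, by 0.66 and 0.74. GOX3 rose by 1.16 and DiT1, a chloroplast dicarboxylate transporter, by 0.38 in adult plants. Whether HAOX2 and GOX3 act in photorespiration was not tested. GLDP2, the second P protein gene, changed by -0.15 ± 0.12 and -0.12 ± 0.12 and was not called.

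The tissue label was checked against marker genes. The 6 leaf and shoot markers averaged 8.85 to 9.09 on submerged adult arrays, 9.21 to 9.25 on submerged juvenile arrays, 9.65 to 9.74 in adult dark controls and 9.90 to 9.95 in juvenile dark controls. The 10 root markers averaged 3.22 to 3.50 on submerged arrays and 3.69 to 3.78 on control arrays, and 6 to 8 of the 10 lay in the dimmest 25% of all genes in each group; no level at 0 exists on this scale. Of these 10, 1 fell in adult and 2 in juvenile plants, and none rose. For this count and those of the markers below, 18.9% of all genes fell in adult and 18.8% in juvenile plants, while 14.6% and 15.5% rose. The averages do not speak for each root marker. CASP2 was not dim, at 6.52 and 6.92 in adult and 7.28 and 6.99 in juvenile dark controls. It fell by 2.64 in adult and 3.24 in juvenile plants, which weighs on the difference between the averages. CASP1 lay between 4.91 and 5.67 on the 8 arrays. Of the leaf markers 4 of 6 fell at each age, among them the carbonic anhydrase gene CA1 (by 1.27 and 1.43). The other 2 were not called. Of 6 epidermis, guard cell and phloem markers 4 fell at each age, with medians of -0.77 and -0.78, and their array means were 7.23 to 7.33 on submerged adult arrays and 7.43 to 7.54 on submerged juvenile arrays, against 8.08 to 8.13 in adult and 8.32 to 8.42 in juvenile dark controls. These markers moved with the falling Calvin cycle and photorespiration genes, and their part in those falls was not tested.

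The counts of called genes depended on single arrays. A fit without 1 array has fewer arrays for every gene, and its share of all genes called is not given here. The losses are therefore not shown to be particular to these genes. The 5 adult rises were 0 without adult submerged replicate 2 or adult dark control replicate 1, 1 without adult dark control replicate 2, and 3 without either juvenile dark control array. The 3 juvenile rises were 1 without juvenile dark control replicate 1, and the 10 juvenile falls were 6 without juvenile submerged replicate 2 or juvenile dark control replicate 2.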

How the data were processed

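The authors deposited log2 expression values, 1 per locus and array; RMA and limma are named, without role or version, per the submitters' processing notes, and the log2 scale was judged from the range of values (1.86 to 13.0). The array model, RMA settings and probe assignment are not given in the sources used here. Array medians were 6.13 to 6.30. Without detection values a low level is not known to be absence, and the 8 arrays limit the precision.

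From these values, limma 3.58.1 in R 4.3.3 fitted 1 mean per group to all 8 arrays and 27826 genes (4 residual degrees of freedom, prior 2.99), with 5 two-sided contrasts and Benjamini-Hochberg adjustment. The fit was tested on simulated data. Figures used matplotlib 3.10.9. The permutation p is the share of arrangements with an absolute mean difference at least as large. RefSeq (TAIR10.1) matched 27241 locus codes and gave names and neighbours only. Of the 32 listed loci all 31 measured ones are described; of other lists, at most the 3 largest called rises and falls, plus partners of the 31. One gene that this rule names is not reported here. Members and lists were chosen with earlier results of these data known. Alternatives were quantile normalization, centring, an intensity trend with a robust prior, removal of the dimmest 50% of genes, fits of 4 arrays, a replicate block, a threshold of 0.01 and omission of each array. Sequences were not used.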

Additional observations from a re-analysis of the deposited data

How the results depend on the processing

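Of 25 called responses of single genes, 13 kept their call under every alternative that gave them a value, fits of 4 arrays included: RBCS2B, PGK1, GAPA2, PRK, GLDT and HPR1 at both ages and TKL2 in juvenile plants (TKL2 was among the dimmest genes left out). In fits of 4 arrays 21 of the 25 kept it. With an intensity trend and a robust prior, 12 genes fell and 6 rose in adult plants (21% and 15.9% of all genes), 14 fell and 4 rose in juvenile plants (20.5% and 16.8% of all genes), and 1 was higher in adult than juvenile plants under water. At an adjusted p under 0.01, 0 rose in adult and 6 fell in juvenile plants. The share of all genes called is not given here for this threshold, the replicate block or the fits without 1 array. Leaving out 1 array gave 0 to 5 rises and 6 to 7 falls in adult plants, 1 to 4 rises and 6 to 10 falls in juvenile plants, and 0 to 9 paralogue pairs past the threshold; the medians ran from -0.21 to -0.11 in adult and from -0.22 to -0.17 in juvenile plants, from -0.10 to -0.05 between ages in dark controls, from -0.07 to 0.04 under water and from -0.03 to 0.08 for the difference of responses. The mean array median of submerged less control arrays was -0.03 in adult and 0.13 in juvenile plants. Centring subtracted this from every change, so adult changes became higher and juvenile changes lower.

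Genes that turned direction were uncalled with all arrays; GLYK in juvenile plants was called without juvenile submerged replicate 1 (-0.58, limma adjusted p = 0.0445). Quantile normalization gave 0.0217 for TKL1 in juvenile plants and 0.00353 for RPI3 and -0.00153 for GLYK in adult plants, and centring gave -0.0451 for FBA2 in juvenile and 0.0234 for RPI3 in adult plants. Without 1 array, adult changes ran from -0.51 to 0.33 for GAPB, -0.0599 to 0.34 for FBA2, -0.25 to 0.0889 for SBPase, -0.16 to 0.14 for RPI3 and -0.0945 to 0.11 for GLYK, and juvenile changes from -0.0523 to 0.00530 for TKL1 and -0.58 to 0.0323 for GLYK. The causes were not tested.

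The replicate numbers were shared by the groups, and the deviations of same-numbered samples correlated only between -0.113 and 0.0492. Such a weak correlation cannot decide whether same-numbered samples shared a planting or a batch, which the labels do not say. The replicate block gave 4 rises and 6 falls in adult plants and 3 rises and 9 falls in juvenile plants.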
